A study of Mus musculus with 12 samples.

Results

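Heat shock proteins and chaperones were followed as 1 group of genes while mouse embryonic stem (ES) cells were differentiated toward neuromesodermal progenitors, with and without Smchd1, a chromatin protein of the SMC family that takes part in gene silencing. The members were all rows of the deposited gene table whose symbol begins with Hspa, Hspb, Hsp90, Dnaja, Dnajb, Dnajc or Cct followed by a number, together with Hspd1, Hspe1, Hsph1 and Tcp1, leaving out names marked as pseudogenes. This gave 82 of 25965 genes, and the rule uses no expression value. They comprise 45 J-domain proteins (4 Dnaja, 13 Dnajb and 28 Dnajc), 10 Cct genes, 8 small heat shock proteins, 6 cytosolic or nuclear Hsp70s, 3 organelle Hsp70s, 2 genes of the Hspa12 branch, 3 Hsp110s, 3 Hsp90s and the 2 subunits of the mitochondrial chaperonin.

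RNA was sequenced from C57BL/6 male ES cells at the days labelled 1, 5 and 8, from Smchd1 fl/fl controls and from Smchd1 del/del cells, with 2 libraries in each of the 6 groups. A single blastocyst gave rise to each ES line, which was then divided: the fl/fl part was left untransduced, and the del/del part received the retrovirus MSCV-Cre-puro and was selected with puromycin, so that deletion, transduction and selection cannot be told apart in any comparison of genotypes. The lines are called 1 and 3, each of them gave 1 library to every group, and a library is named by its genotype, line and day. All cells passed through 2i+LIF and then serum+LIF medium. LIF was then withdrawn and Fgf2 added, a Gsk3 inhibitor followed 2 days later and Gdf11 another 4 days after that. The first sampling is labelled day 1 and described in the growth protocol as day 0, and day 1 is used here. The series compares deleted with control cells over time.

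Chaperones bind unfolded or partly folded proteins and keep them from aggregating. Hsp70 proteins do so in cycles of ATP hydrolysis that J-domain proteins start and Hsp110 proteins help to reset, Hsp90 acts on nearly folded clients, and the ring-shaped CCT complex folds actin and tubulin. Small heat shock proteins hold unfolded proteins without ATP. A subset of these genes is switched on by the transcription factor Hsf1 in heat, and another subset by unfolded protein in the endoplasmic reticulum (ER), while many are made at all times, abundantly so in ES cells.

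The libraries held 1.51 to 8.67 M reads in genes, where M is mega, and fl/fl line 3 at day 8 was the shallowest. A level below is the log2 of RPM (reads per M reads) after the shift of the median tested gene in that library was subtracted, because this shift ran from -1.10 to 0.55 between libraries on the deposited scale. Of the 82 members, 70 were tested, namely those that exceeded 0 on the deposited log2 scale in 2 or more libraries. The targeted gene matched the labels: Smchd1 had levels of 3.99 to 5.36 in the 6 fl/fl libraries and 1.82 to 2.57 in the 6 del/del libraries. The summed RPM of 6 pluripotency markers went from 150 to 191 at day 1 to 38.3 to 77.1 at day 8, and that of 5 neuromesodermal markers from 2.04 to 3.1 at day 1 to 71.5 to 109 at day 5 and 22.2 to 29.3 at day 8. In these bulk samples, fewer cells of a type and less RNA per cell cannot be told apart.

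The regulatory sequences known from the heat and ER stress responses were looked up first. RefSeq promoters (GRCm38.p6, 250 bases before to 50 after each annotated start) were found for 67 of the 82 members. The heat shock element was searched on both strands as GAANNTTCNNGAA. It occurred in 6 of 86 member promoters (6.98%), those of Dnajb6, Hspd1, Hspe1 and Hsph1, against 0.603% of all 32851 promoters. The 6 include separate starts of Dnajb6 and of Hsph1 that hold the same element, and the stretch shared by Hspd1 and Hspe1. The ER stress element was searched on both strands as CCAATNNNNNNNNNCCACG. It occurred in 3 of 86 member promoters (3.49%), those of Dnajc3, Hsp90b1 and Hspa5, against 0.119% of all promoters. Neither element was found at the heat-inducible genes Hspa1a, Hspa1b, Hspb1 and Dnajb1 or at the ER members Dnajb9 and Dnajb11. A match is a description of these letters and not a measured binding site, and a gene without one may hold other forms of the element or hold it outside this window.

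The stretches that carry these matches upstream of a start are printed 5′ to 3′ on the gene's strand with the match in capitals. The first is shared by Hspe1 and Hspd1, the small and large subunits of the mitochondrial chaperonin, which are transcribed away from each other from starts 216 bases apart on chromosome 1. Its capitals hold 2 overlapping heat shock elements, which lie 72 to 89 bases before the start of Hspe1. A second annotated start of Hspd1 lies inside Hspe1 (distance between starts -95 bases), and the promoter of that start holds no heat shock element.
Hspe1, chr1:55088039-55088096, plus strand: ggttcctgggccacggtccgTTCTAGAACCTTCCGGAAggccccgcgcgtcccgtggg
Dnajb6, chr5:29735832-29735884, plus strand: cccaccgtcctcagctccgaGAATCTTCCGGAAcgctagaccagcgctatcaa
Hspa5, chr2:34772005-34772063, plus strand: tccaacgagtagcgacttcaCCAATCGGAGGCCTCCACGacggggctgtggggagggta
Hsp90b1, nearer match, chr10:86705513-86705571, minus strand: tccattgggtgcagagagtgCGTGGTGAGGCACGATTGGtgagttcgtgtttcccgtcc
Hsp90b1, farther match, chr10:86705618-86705676, minus strand: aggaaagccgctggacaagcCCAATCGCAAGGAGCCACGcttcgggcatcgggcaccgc
Dnajc3, chr14:118937807-118937865, plus strand: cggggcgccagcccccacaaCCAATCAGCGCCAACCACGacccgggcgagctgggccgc

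The element lay 34 to 46 bases before the nearer annotated start of Dnajb6 and 47 to 65 bases before the start of Hspa5. Both elements of Hsp90b1 stood at 89 to 107 and 194 to 212 bases before its start, the nearer in the opposite orientation to the farther. In Dnajc3 the element was 87 to 105 bases before the start. The element of Hsph1 lies after its start and is not printed.

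The first comparison asked how chaperone levels changed as the ES cells left pluripotency, from day 1 to day 5, averaged over both genotypes. Of the 4 tested Hspb genes 3 rose (Hspb8, Hspb11 and Hspb2), as did both genes of the Hspa12 branch. Hspb11 encodes an intraflagellar transport protein, and reads of Hspb2 cannot be told apart from those of an overlapping gene, Cryab. The Hsp110 gene Hsph1 and the ribosome-associated J-domain gene Dnajc21 fell. No subunit of the CCT ring, no Hsp90 and neither subunit of the mitochondrial chaperonin passed the test. Of the 70 tested members, 15 rose and 6 fell (limma, adjusted p under 0.05, Benjamini-Hochberg adjustment across the 14063 genes tested), against 55.3% of all tested genes called, 28.7% higher and 26.6% lower. The members' share called was 30% and their median difference 0.09, beside -0.01 over all tested genes. The deposited scale, on which the median gene fell by 0.65, gave 3 members higher and 32 lower (50% called). Of all 14063 tested genes, 1587 were higher and 5923 lower on that scale. Of the 15 risers, 8 kept a positive difference there and 7 (Dnajb14, Dnajb2, Dnajc16, Dnajc25, Dnajc4, Dnajc5 and Hspa13) did not. With each library left out in turn 13 to 28 members were called, the count being 13 without del/del line 1 at day 1 and 13 without fl/fl line 3 at day 5.

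Among small heat shock proteins, Hspb8, a partner of the co-chaperone Bag3 in clearing misfolded proteins (chr5:116408491-116422864, mm10), was the most uniform riser. Its levels at day 1 were 3.01 and 3.09 in fl/fl lines 1 and 3 and 3.05 and 3.10 in del/del lines 1 and 3. At day 5 they were 4.61, 4.51, 4.64 and 4.12, and at day 8 they were 4.46, 4.67, 4.44 and 4.32, in the same order. All 4 day 5 libraries and all 4 day 8 libraries stood above all 4 day 1 libraries. The mean went from 3.06 ± 0.04 to 4.47 ± 0.24 (SD, n = 4 libraries), a rise of 2.66-fold (log2 1.41, SE 0.13, adjusted p = 5.45e-06 by limma), and the difference between days 8 and 5 was 0.00.

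Hspb11 (chr4:107253593-107279938), which despite its name encodes the intraflagellar transport protein Ift25, rose by 2.71-fold. Day 1 levels were 1.74 and 1.89 in the fl/fl and 1.79 and 1.96 in the del/del libraries of lines 1 and 3. Day 5 levels were 3.01, 3.02, 2.98 and 4.12, the last being del/del line 3. The days did not overlap (log2 1.44, SE 0.25, adjusted p = 0.000516 by limma), and the library of del/del line 3 stood apart from the other 3 of its day.

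Hspb2 (chr9:50751072-50752354), a small heat shock protein of heart and skeletal muscle, had the largest difference of any member, from very few reads. It had 3, 2, 3 and 1 reads at day 1 (fl/fl lines 1 and 3, then del/del lines 1 and 3) and 27, 42, 33 and 11 at day 5. Summed over libraries, 113 reads against 9 give a ratio of 18.1 on the relative scale, with an exact 95% interval of 9.2 to 40.6 that covers counting error only. At day 8 the reads were 43, 1, 39 and 22, the single read being in the shallow library. The fitted log2 difference between days 5 and 1 was 4.19 (SE 0.73, adjusted p = 0.000575 by limma). Hspb2 shares 30.2% of its exon length with Cryab on the opposite strand, and no source used here states that counting used strand, so reads of the pair cannot be told apart. Cryab, the lens and muscle small heat shock protein alpha-B crystallin, had 10, 13, 13 and 12 reads at day 1 and 402, 702, 398 and 202 at day 5 (log2 5.59, SE 0.20, adjusted p = 2.94e-08 by limma).

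Hspb1, the widely expressed heat-inducible small heat shock protein, had levels of 2.93 to 3.16 at day 1 and 3.12 to 3.62 at day 5, ranges that overlap (log2 0.28, adjusted p = 0.396). The other 4 small heat shock proteins (Hspb3, Hspb6, Hspb7 and Hspb9) had at most 36 reads in any library and were not tested. Of the 4 tested, 3 rose, among them Hspb11 (Ift25) and Hspb2, whose exons overlap Cryab, and Hspb1 did not pass the test. The same 3 were higher on the deposited scale.

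**Figure D1:**
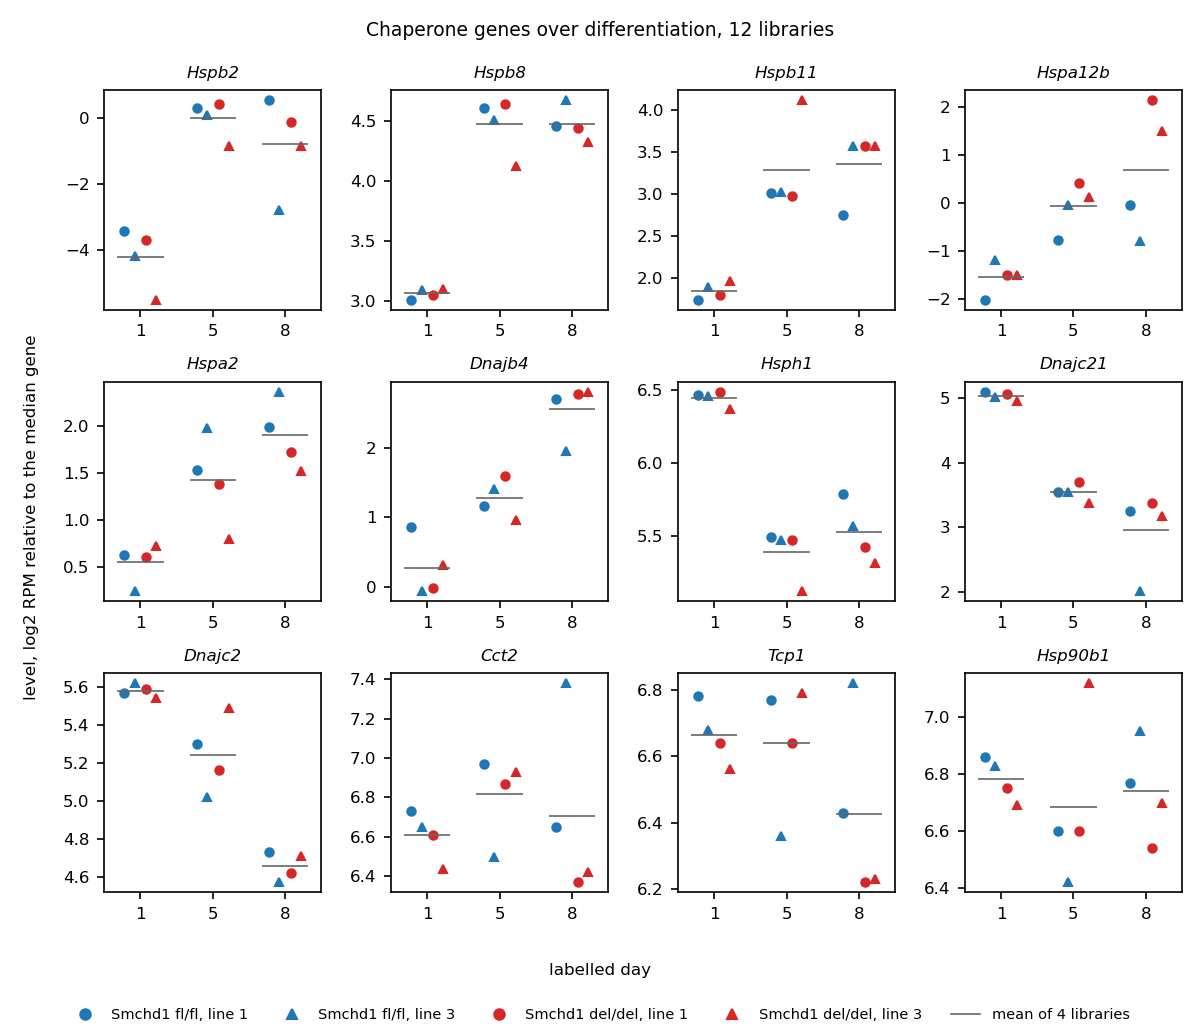
Levels (log2 RPM relative to the median gene, each panel with its own axis) of 12 chaperone genes at the labelled days, with 1 point per library and a bar at the mean of the 4 libraries of a day. Hspb8 lies between 3.01 and 3.10 at day 1 and at 4.12 or above from day 5, Hsph1 falls from 6.37 or above to 5.79 or below, and Tcp1 and Hsp90b1 overlap between days.

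Both genes of the Hspa12 branch, distant relatives of Hsp70 with a divergent ATPase domain, rose by day 5. Hspa12b (chr2:131127280-131146321), known from endothelial cells, had 8, 16, 14 and 16 reads at day 1 and 13, 39, 33 and 22 at day 5, in the order fl/fl lines 1 and 3 and del/del lines 1 and 3. Its levels were -2.02 to -1.19 at day 1 and -0.77 to 0.42 at day 5 and did not overlap (log2 1.49, SE 0.36, adjusted p = 0.00432 by limma). Hspa12a, the member known from brain, had levels of -0.49 to 0.28 at day 1 and 0.44 to 0.96 at day 5 (log2 0.75, SE 0.24, adjusted p = 0.0211 by limma). The call of Hspa12a was lost without fl/fl line 3 at day 1 (adjusted p = 0.0709), either del/del day 1 library (0.0528 and 0.0683) or fl/fl line 3 at day 5 (0.0625).

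Of the cytosolic and nuclear Hsp70s, Hspa2, best known from the testis, was the member that rose. It had levels of 0.63, 0.24, 0.60 and 0.72 at day 1 and 1.53, 1.98, 1.38 and 0.80 at day 5, and all day 5 libraries were above all day 1 libraries, del/del line 3 by the least. The rise was 1.84-fold (log2 0.88, SE 0.23, adjusted p = 0.00767 by limma). Hspa8, the constitutive Hsp70 of the cytosol, had levels of 4.30 to 4.57 at day 1 and 4.11 to 4.80 at day 5 (log2 0.08, 95% interval -0.52 to 0.69). The heat-inducible pair Hspa1a and Hspa1b had differences of 0.49 (adjusted p = 0.275) and 0.71 (adjusted p = 0.0652). These 2 genes share 60.3% and 62.3% of their transcript 50-mers with other genes, mostly with each other, so how their reads were divided between them is uncertain.

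Hsp110 proteins, the nucleotide exchange factors of Hsp70, split. Hsph1 (chr5:149614287-149636376), the heat-inducible Hsp110 with a heat shock element at its start, had levels of 6.47, 6.46, 6.49 and 6.37 at day 1 and 5.49, 5.47, 5.47 and 5.12 at day 5. Every day 1 library was above every later library, and at day 8 the levels were 5.79, 5.57, 5.42 and 5.31. It fell by 1.06 on the log2 scale, or 2.09-fold (SE 0.10, adjusted p = 6.78e-06 by limma). Hspa4, the constitutive Hsp110, fell by 0.31 (SE 0.09, adjusted p = 0.0119 by limma), and that call was lost without line 1 of either genotype at day 1 (adjusted p = 0.0538 without fl/fl and 0.0583 without del/del). Hspa4l, the testis-enriched relative, had a difference of 0.45 that did not pass (adjusted p = 0.098).

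J-domain proteins moved both ways: 8 rose and 4 fell of 40 tested, against 28.7% higher and 26.6% lower among all tested genes. On the deposited scale none was higher, and 3 Dnaja, 2 Dnajb and 11 Dnajc genes were lower. All 14063 tested genes gave 1587 higher and 5923 lower on that scale. Dnajc21 (chr15:10446756-10470516), which acts in the maturation of the large ribosomal subunit, had levels of 5.10, 5.01, 5.06 and 4.95 at day 1 and 3.54, 3.55, 3.70 and 3.37 at day 5. All day 5 libraries were below all day 1 libraries, and the fall was 2.80-fold (log2 -1.49, SE 0.22, adjusted p = 0.000181 by limma). Dnajc2, a J-domain protein of the ribosome and of chromatin, fell by 0.34 from day 1 to day 5 (SE 0.10, adjusted p = 0.0154 by limma). That call was lost without del/del line 1 at day 1 (adjusted p = 0.0546), fl/fl line 3 at day 1 (0.0548) or fl/fl line 3 at day 5 (0.0598).

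Dnajb4 and Dnajb5, class B J-domain partners of Hsp70, both rose. Dnajb4 had levels of 0.86, -0.06, -0.02 and 0.32 at day 1 and 1.17, 1.41, 1.59 and 0.96 at day 5, the 2 days lying close but not overlapping (log2 1.00, SE 0.28, adjusted p = 0.00997 by limma). Dnajb5 had levels of 2.69 to 2.85 at day 1 and 3.50 to 3.80 at day 5 (log2 0.88, SE 0.11, adjusted p = 7.91e-05 by limma). The other J-domain risers were Dnajb14 (0.64), Dnajb2 (0.62), Dnajc16 (0.61), Dnajc4 (0.61), Dnajc25 (0.59) and Dnajc5 (0.51), as log2 differences that are negative on the deposited scale. Dnajb1, the heat-inducible class B partner of Hsp70, had 0.19 (adjusted p = 0.177), and no Dnaja gene passed. Among the 28 tested J-domain genes without a call, the differences ran from -0.57 (Dnajc15) to 1.01 (Dnajc12).

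The remaining 2 that fell were Dnajc27 (-0.58) and Dnajc11 (-0.19), a J-domain protein of the mitochondrial membranes. Of the 21 calls, 11 were kept whichever single library was left out, among them those of Hspb8, Hspb11, Hspb2, Hspa12b, Hspa2, Dnajb4, Dnajb5, Hsph1 and Dnajc21. The other 10 were lost in at least 1 such fit, by Dnajc11 in 10 of 12, by Dnajb2 and Dnajc4 in 9 each and by Dnajc27 in 5. With the line as a replicate block Dnajc11 (adjusted p = 0.0592) and Dnajc4 (0.0553) also lost their calls.

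No subunit of the CCT ring, which folds cytoskeletal proteins, passed the test between days 1 and 5. Per kb of exon, all 8 subunits ranked among the 15 highest of the 70 tested members at day 1, led by Cct2, Cct5 and Cct8 at 5.25, 5.10 and 4.98 on the log2 scale of RPM per kb, behind the constitutive Hsp90 gene Hsp90ab1 at 5.71. The differences from day 1 to day 5 ran from -0.08 (Cct6a, 95% interval -0.33 to 0.16) to 0.21 (Cct2, 95% interval -0.13 to 0.55), with 4 subunits positive and 4 negative. These are differences from the median gene: on the deposited scale all 8 were lower, by 0.43 to 0.72. Cct6b, the testis form of subunit 6, had 15 reads or fewer in every library, and Cct8l1 had at most 1.

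None of the 5 ER members on the list passed either. Hspa5 (BiP), the ER Hsp70, had a difference of 0.11 (95% interval -0.23 to 0.44), Hsp90b1 (Grp94), the ER Hsp90, -0.10 (95% interval -0.35 to 0.15) and the J-domain gene Dnajc3 0.20 (adjusted p = 0.148). These are the 3 members whose promoters hold the ER stress element. The ER J-domain genes Dnajb9 and Dnajb11 had -0.19 and -0.05. Among the ER and secretory-path members outside this list, Dnajc10 had -0.03 and did not pass (adjusted p = 0.816 by limma). Dnajb14 of the ER membrane rose by 0.64 on the relative scale (adjusted p = 0.0108 by limma). Its call was lost without fl/fl line 3 at day 5 (0.50). Hspa13, a microsomal Hsp70, rose by 0.52 on that scale (adjusted p = 0.0154 by limma). That call was lost without the fl/fl or del/del line 1 at day 1 (adjusted p = 0.0603 and 0.0635) or fl/fl line 3 at day 5 (0.0686).

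The mitochondrial subunits that share a promoter, Hspd1 and Hspe1, had differences of -0.23 (95% interval -0.50 to 0.04) and 0.08 (95% interval -0.51 to 0.68). Hspa9, the mitochondrial Hsp70, had 0.09 and Dnaja3, its J-domain partner, -0.09. Of the heat-inducible genes named, Hsp90aa1 had 0.06 (95% interval -0.53 to 0.65). By the deposited values Hspa5, Hspa9, Hsp90b1, Hsp90aa1, Hspd1, Dnaja3 and Dnajb11 (-0.69, adjusted p = 0.0447) were all called lower.

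Co-chaperones and regulators were read from a list of 55 genes, of which 54 were in the table and 52 were tested. From day 1 to day 5, 12 rose and 16 fell, against 55.3% of all tested genes called, 28.7% higher and 26.6% lower. On the deposited scale 3 were higher and 30 lower, against 1587 higher and 5923 lower of all 14063 tested genes. Besides Cryab, the largest rises were those of Bag3, the nucleotide exchange factor that works with Hspb8 (log2 2.10), and Serpinh1, the collagen chaperone Hsp47 (1.75). The largest falls were those of Fkbp5, an Hsp90-bound immunophilin (-2.0), Hspbap1, a protein that binds Hspb1 (-1.03), and Creld2, an ER protein induced by stress (-0.83, a call lost without fl/fl line 3 at day 1). Bag3 and Hspb8 both passed on both scales. The transcription factors Hsf1 and Hsf2 had levels of 3.81 to 4.01 and 3.84 to 4.08 at day 1 and of 3.21 to 3.83 and 2.90 to 3.31 at day 5 (log2 -0.44 and -0.81, adjusted p = 0.00863 and 0.00704 by limma).

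**Figure D2:**
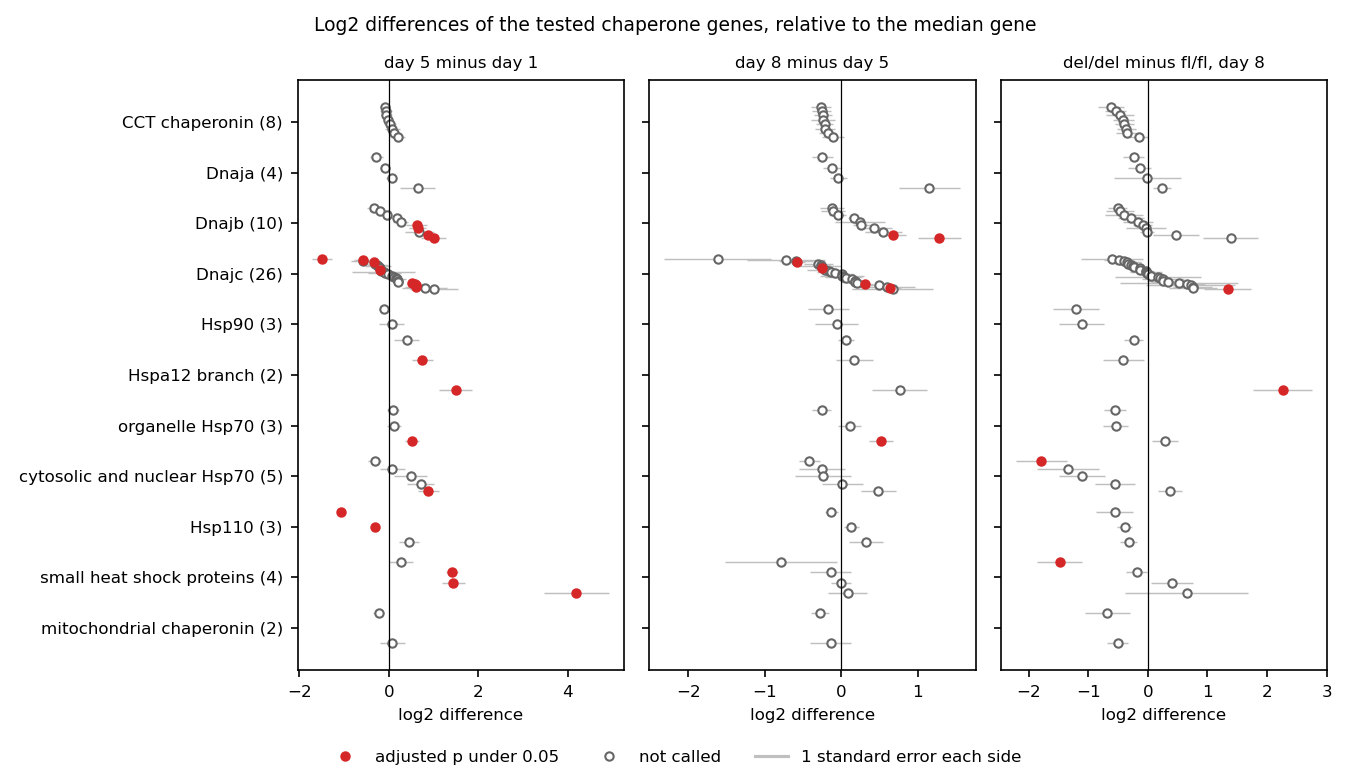
Log2 differences of the 70 tested members relative to the median gene, grouped by family with the number tested, for 3 comparisons. Points are fitted differences with 1 standard error each side, filled where the adjusted p is under 0.05. The CCT genes lie close to 0 in the first panel (-0.08 to 0.21) and below 0 in the third (-0.62 to -0.15).

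From day 5 to day 8, the interval in which Gdf11 was added, few members moved. Of 70 tested, 5 rose and 2 fell by limma at an adjusted p under 0.05, against 20.4% of all tested genes called, 10.8% higher and 9.63% lower. On the deposited scale none was called (3 at an unadjusted p under 0.05), against 533 higher and 198 lower of all 14063 tested genes. The number called was 2 without fl/fl line 1 at day 5 or del/del line 1 at day 8, 4 without any single day 1 library or del/del line 3 at day 8, and 14 without either fl/fl day 8 library. The number of all tested genes called moved the same way, down in the fits with 2 or 4 members and up in those with 14. Dnajb4 rose again, to levels of 2.71, 1.95, 2.78 and 2.81, all above the 0.96 to 1.59 of day 5 (2.43-fold, log2 1.28, SE 0.28, adjusted p = 0.00939 by limma). Dnajc2 fell again, from 5.30, 5.02, 5.16 and 5.49 at day 5 to 4.73, 4.57, 4.62 and 4.71 at day 8, with no overlap (log2 -0.58, SE 0.10, adjusted p = 0.00326 by limma). These 2 calls were kept whichever library was left out.

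The other risers were Dnajb14, a J-domain protein of the ER membrane (0.67), Dnajc16 (0.63), the microsomal Hsp70 Hspa13 (0.52) and Dnajc10, an ER disulfide reductase with a J domain (0.31). Each lost its call in at least 2 of the 12 fits with a library left out, Dnajc16 for example without fl/fl line 1 at day 5 (adjusted p = 0.0696) and without del/del line 1 at day 8 (0.0741). Dnajc11 fell by 0.25 and lost its call in 8 of 12. With the line as a replicate block Dnajc10 lost its call (adjusted p = 0.0659) and Dnajc7 (-0.26, adjusted p = 0.0416) gained one. The widest differences without a call were those of Dnajc6, a J-domain protein that uncoats clathrin vesicles (-1.62, SE 0.70, adjusted p = 0.127), and Dnaja4 (1.15, SE 0.40, adjusted p = 0.0631). Dnaja4 shares 44.1% of its exon length with Wdr61 on the opposite strand, so reads of that pair cannot be told apart either. All 8 CCT subunits had negative differences between -0.27 and -0.11, and none of them passed (lowest adjusted p = 0.164 by limma). In the co-chaperone list 3 rose and 6 fell of 52 tested, against 10.8% higher and 9.63% lower among all tested genes, with Bag2 (0.64), Pdia4 (0.39) and Ahsa2 (0.31) rising and Hspbap1 (-1.05), Trap1, the mitochondrial Hsp90 (-0.51), and Fkbp5 (-0.45) falling, while none was called on the deposited scale.

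The second question was whether deletion of Smchd1 changed chaperone levels. At day 1 none of the 70 tested members was called by limma, and none had an unadjusted p under 0.05. Voom on the recovered reads also called none. Of all tested genes 0.00711% were called by limma, that is 1 gene, Smchd1 itself (adjusted p = 0.00187). The smallest p-values belonged to Hspa12a (0.60), Dnajb2 (-0.52) and Dnajc12 (0.96), as log2 differences of del/del minus fl/fl that did not pass. At day 5 no member was called by limma or voom, with 2 members under an unadjusted p of 0.05 by limma and 4 by voom. Of all tested genes 0.00711% were called by limma, again Smchd1 alone (log2 -2.07, adjusted p = 0.043). Even that call was lost in 9 of 12 fits with a library left out, so a missing call does not show that a member was unchanged. The smallest p-values were those of Hspa4l (-1.0), Hspa13 (0.53) and Dnajc16 (-0.47), each with an adjusted p of 0.597. Without del/del line 1 at day 5, which leaves 1 library in its group, more members and more of all tested genes were called. The members' median difference at day 5 was then 0.10 beside -0.05 over all tested genes.

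At day 8, Hspa12b and the mitochondrial J-domain gene Dnajc15 were higher in del/del cells, and the heat-inducible genes Hspa1b and Hspb1 were lower. These were the only members called of 70 tested (2 higher and 2 lower, limma), against 15% of all tested genes called, 7.95% higher and 7.05% lower. None of the 4 calls was kept without fl/fl line 3 at day 8, which has 1.51 M gene reads, or without del/del line 3 at day 8. The number called was 1 without del/del line 1 at day 8, 26 without fl/fl line 1 at day 8, 10 without either del/del day 5 library and 2 without either fl/fl day 1 library. The number of all tested genes called moved the same way, up in the fits with 10 or 26 members and down in those with 1 or 2. The fit without fl/fl line 1 at day 8 leaves the shallow library alone in its group. On the deposited scale 8 members were higher and none lower (11.4% called). Of all 14063 tested genes, 3227 were higher and 68 lower on that scale, with the median gene 0.90 higher in del/del cells. Voom called 2, Hspa12b and Hspa1b.

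Hspa12b had levels of -0.05 and -0.80 in fl/fl lines 1 and 3 and of 2.15 and 1.51 in del/del lines 1 and 3, from 29, 4, 189 and 113 reads. Both del/del libraries were above both fl/fl libraries, and above every library of days 1 and 5. The difference was 4.78-fold (log2 2.26, SE 0.50, 95% interval 1.15 to 3.36, adjusted p = 0.0202 by limma). It was 1.88 without the shallow library (adjusted p = 0.0986) and 1.94 and 2.57 without del/del line 1 and line 3 (adjusted p = 0.102 and 0.119). The sign and the call held on the deposited scale too (3.14, adjusted p = 0.0097).

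Dnajc15 (chr14:77826217-77874917), a J-domain protein of the inner mitochondrial membrane, had levels of 2.60 and 1.11 in fl/fl and 3.10 and 3.28 in del/del cells. The groups did not overlap, and the low value of fl/fl line 3 rests on 15 reads. The difference was 1.34 (SE 0.39, adjusted p = 0.042 by limma) and 0.60 without that library (adjusted p = 0.193). The call was also lost with the line as a replicate block (adjusted p = 0.058 by limma) and by voom. In the fits with 1 library left out this call was lost in 9 of 12, also by leaving out any single day 1 library or either fl/fl day 5 library.

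Hspb1 (chr5:135887919-135889563) had levels of 3.22 and 4.68 in fl/fl and 2.67 and 2.27 in del/del cells at day 8, and the value of 4.68 in the shallow library was above all other 11 libraries (2.27 to 3.62). The difference was -1.48 (SE 0.38, adjusted p = 0.0295 by limma) and -0.75 without that library (adjusted p = 0.136). The call was also lost without either del/del day 8 library (adjusted p = 0.0676 for line 1 and 0.21 for line 3) or either fl/fl day 1 library (0.0503 and 0.0504). Hspb1 shares 48.8% of its transcript 50-mers with the pseudogene Hsp25-ps1.

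Hspa1b (chr17:34956436-34959238) had levels of 1.18 and 2.29 in fl/fl and 0.29 and -0.40 in del/del cells, from 68, 34, 52 and 30 reads. The shallow library was again the highest of all 12, and del/del line 3 the lowest. The difference was -1.79 (SE 0.43, adjusted p = 0.0242 by limma), -1.23 without the shallow library (adjusted p = 0.133) and -1.45 without del/del line 3 (0.198). Its near copy Hspa1a (chr17:34969199-34972154) had levels of -0.05 and 0.78 against -0.95 and -0.99 and did not pass (log2 -1.34, adjusted p = 0.0967). Both stayed negative on the deposited scale (-0.91 and -0.46), where neither was called.

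**Figure D3:**
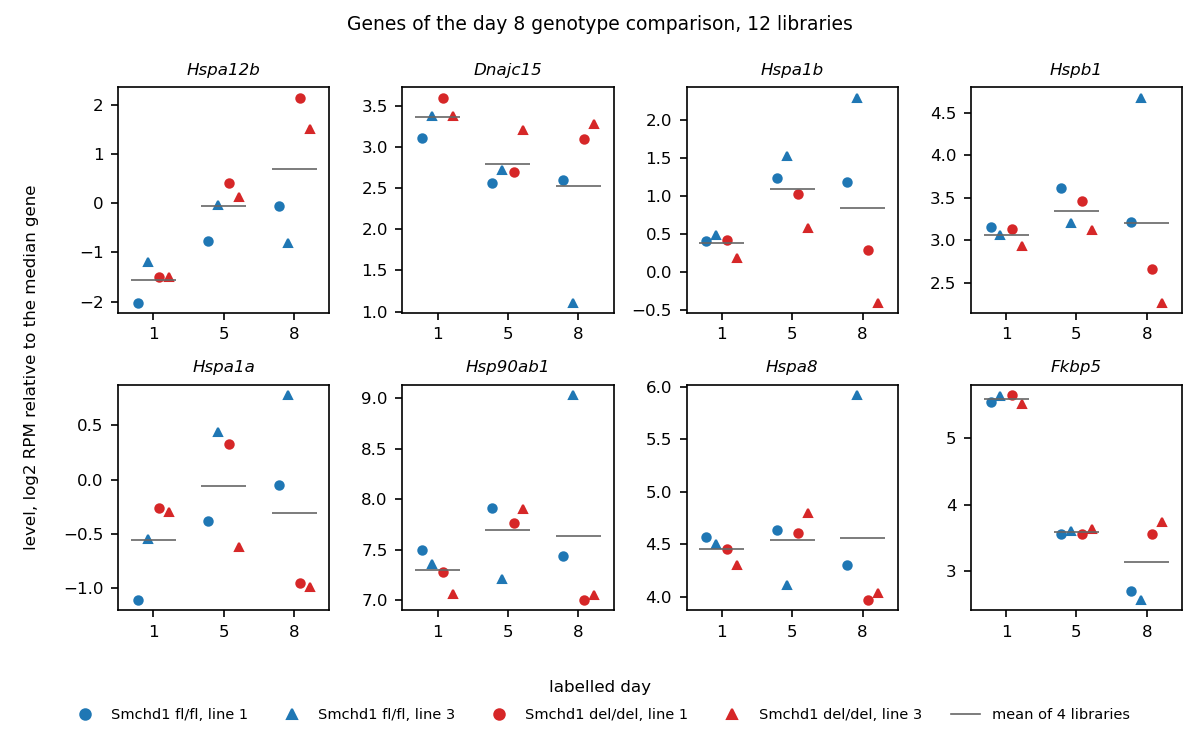
Levels (log2 RPM relative to the median gene) by labelled day of the 4 members called between genotypes at day 8, of Hspa1a, Hsp90ab1 and Hspa8, which were not called, and of the co-chaperone Fkbp5. Points are libraries and bars the mean of 4 libraries of a day; the fl/fl line 3 triangle at day 8 is the highest point for Hspa1b (2.29), Hspb1 (4.68), Hspa1a (0.78), Hsp90ab1 (9.03) and Hspa8 (5.92).

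Most tested chaperones had negative differences at day 8 relative to the median gene: 49 of 70 members, while 51.0% of all tested genes were positive. The members' median was -0.23 beside 0.02 over all tested genes. Without fl/fl line 3 at day 8, 21 of 70 members were positive (48.9% of all tested genes), with a median of -0.17 beside -0.01. With the read density trend removed 24 were positive (50.5% of all tested genes), with a median of -0.11 beside 0.01. On the deposited scale 64 of 70 were positive (89.5% of all tested genes), with a median of 0.65 beside 0.90. All 8 CCT subunits (-0.62 to -0.15), the 3 Hsp90 genes (-1.21 to -0.24), both chaperonin subunits (-0.68 and -0.51) and all 3 Hsp110s (-0.56 to -0.32) lay below 0, and none was called by limma with all libraries. Hsp90ab1 was called with the read density trend removed and with a pseudocount of 1 RPM. Hspa4 was called without either fl/fl day 5 library, and Hspa4 and Hspd1 without either del/del day 5 library. Without fl/fl line 1 at day 8 the fl/fl group of that day is the shallow library alone. The members' median was then -0.23 beside 0.03 over all tested genes. More of all tested genes were called in that fit, among them CCT, Hsp90 and chaperonin members and Hspa4. By the deposited values the CCT subunits (0.26 to 0.73), the chaperonin subunits and the Hsp110s were all above 0, also without a call, while 2 of the 3 Hsp90 genes stayed below 0 (-0.33 to 0.64).

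These differences went with read density in the fit that includes the shallow library. Of the 70 members, 19 lie in the densest decile of tested genes by reads per kb of exon. Their median day 8 difference was -0.40, with 18 of 19 negative, beside -0.19 for all genes of that decile, and it was -0.16 beside -0.07 without fl/fl line 3 at day 8. With the trend of each library on read density removed, the median was -0.13 beside -0.01. Over the 70 members the Spearman correlation of the difference with reads per kb was -0.30 with all libraries, 0.03 without the shallow one and -0.03 with the trend removed, a description across genes that share the same libraries.

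Read numbers of Hsp90ab1 and Hspa8 varied less between libraries than depth did. Reads in all genes spanned 5.74-fold between the shallowest and deepest library, and the J-domain gene Dnajc13 spanned 7.85-fold (240 to 1883 reads). Hsp90ab1, however, had 3644 reads in the shallow library and 4799 to 6132 in the other 11, a range of 1.68-fold, and Hspa8 had 421 and 553 to 897, a range of 2.13-fold. The shallow library held 0.212 of the median gene reads of the others, 0.667 of their Hsp90ab1 reads, 0.632 of their Hspa8 reads, 0.639 of their Hspb1 reads and 0.338 of their Cct2 reads. Relative to the median gene, Hsp90ab1 was at 9.03 in that library and at 7.00 to 7.91 in the other 11. Its day 8 difference was -1.21 (adjusted p = 0.0588 by limma), -0.62 with the read density trend removed (adjusted p = 0.0467) and -0.42 without the shallow library (adjusted p = 0.312). Those of Hspa8 and Hsp90aa1 were both -1.11 (adjusted p = 0.0739 and 0.0693), and -0.29 and -0.36 without the shallow library (adjusted p = 0.412 and 0.415). Part of the transcript 50-mers of Hspa8 (38.6%), Hsp90aa1 (47.5%) and Hspd1 (39.7%) also occurs in transcripts of other genes.

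**Figure D4:**
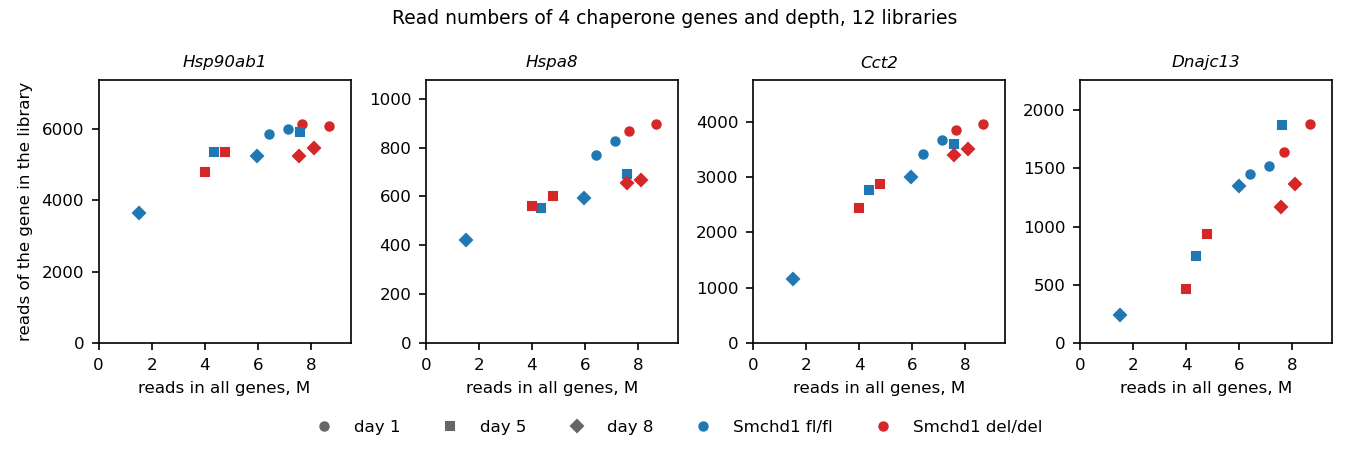
Reads of Hsp90ab1, Hspa8, Cct2 and Dnajc13 against the reads in all genes of the same library (in M), with 1 point per library, both axes from 0. The library at 1.51 M gene reads has 3644 of at most 6132 reads for Hsp90ab1 and 240 of at most 1883 for Dnajc13.

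**Figure D5:**
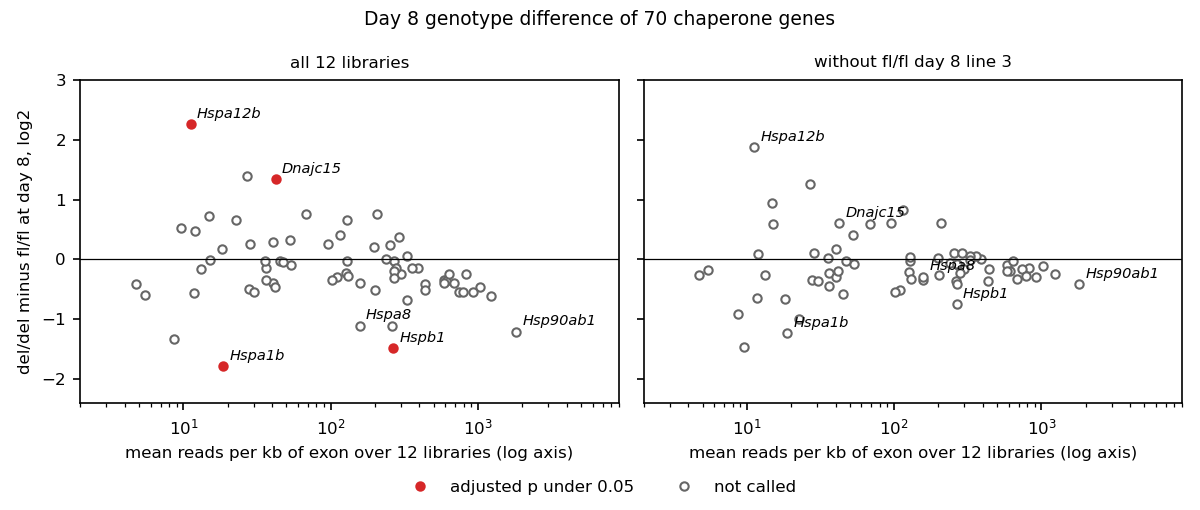
Day 8 difference of del/del minus fl/fl (log2, relative to the median gene) against mean reads per kb of exon (log axis) for the 70 tested members, with all 12 libraries on the left and without the fl/fl line 3 library on the right; filled points passed an adjusted p of 0.05. On the left 4 members are filled and Hsp90ab1 stands at -1.21; on the right none is filled.

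Summed markers of several cell types also differed between the genotypes at day 8, with 2 libraries a group, while those of others overlapped. The summed RPM of 4 fibroblast or feeder markers (Thy1, Col1a1, Col1a2 and Postn, none of them at 0 reads in either group) was 125 and 24.8 in fl/fl and 273 and 361 in del/del libraries. The 3 trophoblast markers (Cdx2, Krt7 and Prl3b1) summed to 59.6 and 81.4 against 24.3 and 13.2, and the 3 muscle markers (Des, Myh3 and Actc1, of which Myh3 was at 0 reads in fl/fl cells) to 27.7 and 5.02 against 38.8 and 56.9. The 6 pluripotency markers (Pou5f1, Nanog, Sox2, Zfp42, Esrrb and Klf4) summed to 68.1 and 77.1 in fl/fl and 45.2 and 38.3 in del/del libraries. The 4 paraxial mesoderm markers (Tbx6, Msgn1, Meox1 and Tcf15, of which Meox1 was at 0 reads in fl/fl cells) summed to 3.19 and 2.44 against 6.39 and 14.1, and the 3 germ cell markers (Ddx4, Dazl and Sycp3) to 6.65 and 6.46 against 12.9 and 11.8. The 3 neural markers (Pax6, Sox1 and Olig2, of which Sox1 was at 0 reads in fl/fl cells) summed to 2.06 and 2.44 against 1.83 and 1.54. Sums overlapped between genotypes for extraembryonic endoderm markers (55.5 and 24.7 against 7.23 and 31.0). They also overlapped for neuromesodermal (29.3 and 22.7 against 23.2 and 22.2) and motile cilia markers (3.19 and 1.0 against 2.02 and 2.37). The part of these cell types in the differences of Hspa12b, Dnajc15, Hspa1b and Hspb1 was not tested.

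In the co-chaperone list, 1 gene was higher and 4 lower of 52 tested at day 8, against 7.95% higher and 7.05% lower among all tested genes. Without the shallow library 1 was higher and 0 lower, and on the deposited scale 11 were higher and none lower. Of all 14063 tested genes, 3227 were higher and 68 lower on that deposited scale. Fkbp5 had levels of 2.69 and 2.56 in fl/fl and of 3.56 and 3.74 in del/del cells with no overlap between genotypes. The difference was 1.03 (SE 0.13, adjusted p = 0.00545 by limma). That call was kept without the shallow library and lost without del/del line 3 (0.94, adjusted p = 0.0591). The ER chaperones Pdia3 (-0.81) and Calr (-0.72) and the Hspb8 partner Bag3 (-0.72) were lower, but all 3 lost the call without the shallow library (adjusted p = 0.169, 0.185 and 0.186) and had positive differences on the deposited scale (0.07, 0.16 and 0.16). Hsf1 and Hsf2 had 0.26 and 0.31 and did not pass.

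A change of the genotype difference itself between days was tested as an interaction. No member was called between days 1 and 5 (2 under an unadjusted p of 0.05 by limma and 2 by voom, 0% of all tested genes called). None was called between days 5 and 8 by limma or voom either (18 and 16 under an unadjusted p of 0.05, 0.00711% of all tested genes called). The smallest p-values between days 5 and 8 were those of Hspd1 (-0.70), Hsp90aa1 (-1.51) and Cct8 (-0.72), and those between days 1 and 5 were those of Hspa4l (-1.24), Hspa13 (0.69) and Hsp90b1 (0.47). Without fl/fl line 1 at day 8 the shallow library is alone in its group. In that fit more members and more of all tested genes were called between days 5 and 8. The members' median was then -0.10 beside 0.06 over all tested genes.

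The 12 members not tested had at most 44 reads in any library and are given as reads. Dnajb13, a J-domain protein of sperm and cilia, had 15, 22, 29 and 44 reads at day 1 and 2 to 12 at day 8. Dnajc5g, a relative of the cysteine string protein Dnajc5, had 19, 13, 26 and 14 reads at day 1 and 0 to 5 at days 5 and 8. Hspa1l, the testis Hsp70, has its start 547 bases from that of Hspa1a in the opposite direction. It had 6 and 0 reads in fl/fl and 29 and 28 in del/del cells at day 8. Hspa1l shares 71.9% of its exon length with Gm10501 on the opposite strand, so reads of the pair cannot be told apart. With no filter on low values, Dnajc5g and Hspa1l were called between days 1 and 5, and Hspa1l also between genotypes at day 8. Hspb6, the muscle small heat shock protein, had 0 to 36 reads, Cct6b 0 to 15, Hspb9 0 to 6 and Dnajc5b 0 to 3, and Cct8l1, Dnajb7, Dnajb8, Hspb3 and Hspb7 had at most 2.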

How the data were processed

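RNA of 12 ES cell libraries was sequenced. The tools bcl2fastq, TopHat2 2.0.12 and edgeR and the build mm10 are named in the submitters' processing notes. Duplicate removal and strand use are not given in the sources used here. Values as deposited are log2 RPM, per the labels. Each library's values are whole multiples of 1 read (100% within 0.02 reads, 0 entered as 0.9), from which reads were recovered; genes took 10.1 to 27.8% of the 14.9 to 34.0 M reads of the denominators. Each library was centred on the median log ratio of the tested genes. limma 3.58.1 in R 4.3.3 fitted 6 group means with a mean-variance trend over the 14063 genes above 0 on the deposited log2 scale in 2 or more libraries (Benjamini-Hochberg, 0.05); the same steps were tested on simulated data.

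Replicates are lines from separate blastocysts, and the same 2 lines pair all groups by design; correlations of their deviations ran from -0.154 to 0.24. Alternatives were the deposited scale, voom, a replicate block, 2 filters, a pseudocount of 1 RPM, removal of the read density trend (lowess span 0.3) and each library left out. The members, the lists and the relative scale were chosen with earlier results of these data known. Genes named were fixed by role (heat-inducible, ER, mitochondrial, CCT, tissue-restricted), by size among those called (8 per direction over time, 5 between genotypes, 3 in the co-chaperone list) and, where under 3 passed, by the 3 smallest p-values; other called members, untested members and genes that illustrate read density or share sequence were named after their values were seen. Exon lengths and shared 50-mers come from GENCODE M21. Values of reads and intervals of single ratios cover counting error only.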

Additional observations from a re-analysis of the deposited data

How the results depend on the processing

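With all libraries 21 members were called from day 1 to day 5, 7 from day 5 to day 8, 4 between genotypes at day 8 and 0 in the other comparisons. With the replicate block (line) the counts were 19, 7, 3 and 0, and no count moved by over 1.5 times. Under the block the calls of Dnajc11 and Dnajc4 (day 5 minus day 1), Dnajc10 (day 8 minus day 5) and Dnajc15 (genotypes at day 8) were lost and Dnajc7 (day 8 minus day 5) was called. On the deposited scale they were 35, 0 and 8. At day 8 between genotypes, voom gave 2, the filter requiring values above 0 in all libraries 2 and the pseudocount of 1 RPM 7. From day 5 to day 8, no filter on low values gave 2, the pseudocount 11 and removal of the read density trend 4. Leaving out 1 library gave 13 to 28 (day 5 minus day 1), 2 to 14 (day 8 minus day 5), 0 to 26 (genotypes at day 8), 0 to 6 (genotypes at day 5) and 0 to 17 (change of the genotype difference from day 5 to day 8); the genotype comparison at day 1 and the change from day 1 to day 5 stayed at 0. A library whose partner was left out is assumed to vary like the other groups.

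Of the genes named by size or by smallest p, which were recomputed under every setting, 7 values changed sign: on the deposited scale Pdia3 (0.07), Calr (0.16) and Bag3 (0.16) between genotypes at day 8, Hsp90b1 (-0.06) in the interaction of days 1 and 5 and Hspd1 (0.56) and Cct8 (0.54) in that of days 5 and 8, by the shift of the median gene that this scale keeps, and Dnajc12 between genotypes at day 1 with 1 library left out (-0.02 to 1.94, the lowest without fl/fl line 1). Members named by their role, such as Cct2 and Hspa5 from day 1 to day 5, also change sign on the deposited scale, as do the 7 risers listed in the report. With 2 libraries a group and 1.51 M gene reads in the shallowest, a change in a member with few reads, such as Hspb2, Hspa12b or Hspa1b, rests on few reads.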
